A study of Homo sapiens with 9 samples.

Results

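TGF-beta and activin signaling was read on the arrays through 10 genes, TGFB1, TGFB2, TGFB3, INHBA, INHBB, TGFBR1, TGFBR2, FST, SMAD3 and SMAD7. Every probe that the array files name for these genes was taken, which gave 11 probes, with 2 for TGFBR2 and 1 for each other gene, of 58201 probes for 43395 named genes in all. The arrays measured RNA from T47D, a human breast cancer cell line long in culture, in 3 stable lines with 3 arrays for each line and 9 in all. All lines were transfected with a pTARGET vector, selected with G418 and grown in the same medium with fetal bovine serum. T47D-VC1 carries the vector alone, T47D-PA6 carries the full-length form of PTH-AS, a long noncoding RNA encoded downstream of the PTH gene, and T47D-PA5 carries an incomplete form of it. The study used a fragment of similar size in T47D-PA5 as a control for effects of gene transfer, and the level of PTH-AS itself was not analysed here. Each line is 1 stable clone, and the PTH-AS clones were picked for high expression of the insert, so a difference between lines is also a difference between clones, and these cannot be told apart. Nothing states that the 3 arrays of a line came from separate cultures, and p-values then measure only the spread between these arrays, which may be technical.

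TGF-beta and activin are secreted dimers of 1 protein family. A ligand brings together type II and type I receptor kinases, which phosphorylate SMAD2 and SMAD3, and these enter the nucleus with SMAD4 and act on target genes. TGFB1, TGFB2 and TGFB3 encode the TGF-beta ligands, INHBA and INHBB the beta subunits of activin A and activin B, TGFBR1 and TGFBR2 the type I and type II TGF-beta receptors, FST the activin-binding inhibitor follistatin, and SMAD7 an inhibitory SMAD that TGF-beta itself induces. In breast epithelium the pathway is known for restraining growth and, in cancer cells, for its part in invasion and epithelial-mesenchymal transition.

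The probes that carry the main ligand results are printed here because a reader can place each signal on its transcript. The INHBA probe lies on chromosome 7 of hg19, chr7:41729246-41729305 on the minus strand, at the end of the coding sequence, and the stop codon is near its 3′ end. The TGFB1 probe lies on chromosome 19 of hg19, chr19:41838142-41847802 on the minus strand, and its 60 bases span 9661 bases of the genome, so that it crosses at least 1 splice junction.
INHBA probe: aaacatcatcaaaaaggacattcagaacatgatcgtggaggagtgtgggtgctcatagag
TGFB1 probe: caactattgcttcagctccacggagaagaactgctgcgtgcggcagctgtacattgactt

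The windows of 250 bases before the start of INHBA and TGFB1 are shown because both ligands were higher in T47D-PA6. They are RefSeq windows on GRCh38.p14, chr7:41703091-41703340 for INHBA and chr19:41353923-41354172 for TGFB1, both on the minus strand. Capitals mark every match, on either strand, to the motifs searched, which were CAGAC (bound by SMAD proteins), GGGCGG (the GC box), the core of the interferon response element, TTCNNNGAA (the STAT element), TGANTCA (the AP-1 site), TGACGTCA (the cyclic AMP response element) and TATAAA.
INHBA promoter: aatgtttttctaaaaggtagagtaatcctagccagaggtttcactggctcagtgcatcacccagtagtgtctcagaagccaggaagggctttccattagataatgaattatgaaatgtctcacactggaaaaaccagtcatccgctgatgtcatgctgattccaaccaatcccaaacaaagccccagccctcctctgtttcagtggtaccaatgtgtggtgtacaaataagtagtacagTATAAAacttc
TGFB1 promoter: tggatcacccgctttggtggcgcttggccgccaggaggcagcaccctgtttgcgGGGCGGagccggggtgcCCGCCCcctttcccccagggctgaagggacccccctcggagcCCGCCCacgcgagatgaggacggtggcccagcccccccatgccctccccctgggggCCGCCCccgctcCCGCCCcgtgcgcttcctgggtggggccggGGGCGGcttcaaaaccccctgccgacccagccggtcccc
The TGFB1 window held 6 matches to GGGCGG and none to the other motifs. The INHBA window held 1 match to TATAAA and none to the others. Among all 35116 promoter windows, 42.6% held GGGCGG and 10.7% held TATAAA. The SMAD-bound letters CAGAC were in 38.0% of them, the interferon response core in 3.02%, TTCNNNGAA in 6.57%, TGANTCA in 6.57% and TGACGTCA in 1.65%. These are matches of letters in a window, with no measure of binding.

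A signal is the spot intensity that the scanner software gave, normalized so that all arrays had the same distribution, and it has no unit. A probe is well above background where that software marked it so. A gene was tested where its probe was well above background on all 3 arrays of at least 1 line, and the lines were compared with limma on the log2 scale in 1 fit over the 9 arrays. A gene is called higher or lower where its p-value, after Benjamini-Hochberg adjustment across the 20106 tested genes, was under 0.05. Of the 10 genes, 7 were tested. TGFB2, TGFBR2 and FST did not reach that level in any line. Levels of different probes were not set against each other.

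From 44.0% to 48.0% of probes were well above background on an array. Replicate 1 of each line was on a first slide in an earlier scan run and stood apart from replicates 2 and 3. Replicates 2 and 3 of T47D-PA6 were both on slide 3, while those of the other lines were split over slides 2 and 3. Line and slide are therefore not balanced. The median difference between 2 arrays of a line was 0.21 to 0.27 (log2) where replicate 1 was one of them and 0.09 to 0.11 between replicates 2 and 3. The difference of each tested member is therefore also given within the earlier scan run, with 1 array per line, and the later, with 2. The 8 markers of luminal breast epithelium, among them KRT19, GATA3, EPCAM and ESR1, were well above background on all arrays. Of these, PGR, the progesterone receptor, fell by 1.07 in T47D-PA6 over T47D-VC1 (log2, adjusted p = 0.00724), from a mean signal of 15080 to 7201, and by 0.69 over T47D-PA5 (adjusted p = 0.0367). Of 14 markers of basal, fibroblast, endothelial and leukocyte cells, KRT5, TP63, PECAM1, COL1A2, DCN, LUM and CD3E were not well above background on any array, and COL1A1, CDH5, VWF, PTPRC and CD14 were on all. KRT14 was on 0, 1 and 2 arrays of T47D-VC1, T47D-PA5 and T47D-PA6, and PDGFRB on 1 array of each PTH-AS line. COL1A1, a fibroblast marker, fell by 0.50 in T47D-PA6 over T47D-VC1 (adjusted p = 0.0198).

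T47D-PA6 differed from the vector line in 4 of the 7 tested genes. INHBA, TGFB1 and SMAD3 were higher in T47D-PA6, where 4.69% of all tested genes were called higher, and TGFBR1 was lower, where 5.34% were called lower. In T47D-PA5, 0 of the 7 were called against T47D-VC1 by limma, where 1.37% of all tested genes were called higher and 0.298% lower. At an unadjusted p under 0.05 the count was 1 there, both by limma and by the methods' t-test, which called 0 after adjustment. After adjustment the t-test called 0.194% of all tested genes. The share of all tested genes at an unadjusted p was not computed, here or below. Between the PTH-AS lines, 2 of the 7 were called, INHBA higher and TGFBR1 lower in T47D-PA6, against 3.65% of all tested genes called higher and 6.06% lower. The study's own rule, a ratio above 2 or below 0.6, was applied with no test to the ratios of the fit here. By it, 3 of the 7 were above 2 and 1 below 0.6 in T47D-PA6 over T47D-VC1, against 3.47% and 4.17% of all tested genes. It was 0 and 0 in T47D-PA5 over T47D-VC1, against 2.17% and 1.76%, and in T47D-PA6 over T47D-PA5 it was 2 and 1, against 2.69% and 5.31%. INHBA is in the counts of both comparisons with T47D-PA6, though it passed the filter only through that line. With only probes well above background on all 9 arrays, SMAD3, TGFB1 and TGFBR1 were called against T47D-VC1, beside 10.4% of all genes tested then. Against T47D-PA5, TGFBR1 was called, beside 9.81%. TGFB1, TGFB2, TGFBR1 and SMAD3 are in a list of cancer pathway genes that the study drew from these same arrays, so it is not independent evidence. For T47D-PA6 over T47D-VC1 that list prints a ratio below 0.6 for TGFBR1 and no value for TGFB2. Its ratios for TGFB1 and SMAD3 are higher than in T47D-VC1 but under 2, whereas both were above 2 here. The reason for this difference was not tested. The arrays read RNA of whole cultures, in which fewer cells of a type and less RNA per cell cannot be told apart.

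The count of called genes depended on single arrays. In T47D-PA6 over T47D-VC1 it was 2 without T47D-VC1 replicate 2, and 1 without T47D-VC1 replicate 3, T47D-PA6 replicate 2 or T47D-PA6 replicate 3, where 5.08%, 3.56%, 3.96% and 3.5% of all tested genes were called. In T47D-PA6 over T47D-PA5 it was 4 without T47D-VC1 replicate 1, and 1 without T47D-VC1 replicate 3, without any one of the T47D-PA5 arrays, or without replicate 2 or 3 of T47D-PA6, where 13.3% of all tested genes were called without T47D-VC1 replicate 1 and 3.61% to 7.92% in the others. For T47D-PA5 over T47D-VC1, leaving out replicate 1 of T47D-PA6 gave 1 call, SMAD3, where 3.09% of all tested genes were called. INHBA was called in both comparisons with T47D-PA6 whichever array was left out. With replicates 2 and 3 alone, the counts were 5, 4 and 7 of 7 in T47D-PA6 over T47D-VC1, T47D-PA5 over T47D-VC1 and T47D-PA6 over T47D-PA5, and 37.1%, 21.4% and 35.5% of all tested genes were then called.

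**Figure D1:**
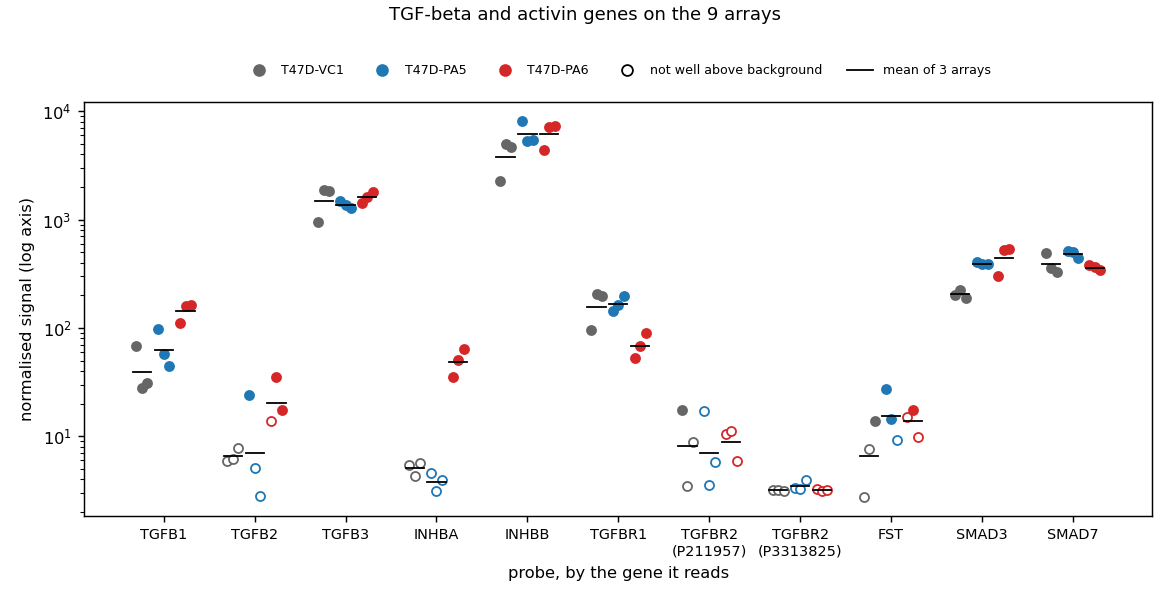
Normalized signal (log axis) of the 11 probes on each of the 9 arrays, 3 points for each line in the order of replicates 1 to 3, with a bar at their mean on the log scale and open points where the probe was not well above background. INHBA was well above background in T47D-PA6 alone, at 35.5 to 63.5, and TGFBR1 was lower on the 3 T47D-PA6 arrays, at 52.4 to 89.4, than on any other.

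The ligands are described first. INHBA, the activin A subunit, had the largest fitted difference of the tested members. Its signal in T47D-PA6 was 35.5, 50.7 and 63.5. The T47D-VC1 arrays read 5.45, 4.29 and 5.70 and the T47D-PA5 arrays 4.54, 3.09 and 3.96, none of them well above background. All T47D-PA6 arrays stood above all others, and the vector and T47D-PA5 arrays overlapped. Because the other lines were not well above background, the fold is only a bound. In T47D-PA6, INHBA was at least 3.89-fold higher than in T47D-VC1 and at least 3.74-fold higher than in T47D-PA5. By limma, the fitted differences had adjusted p-values of 0.000369 and 0.000226, and the bounds themselves were not tested. The bound sets the mean of the T47D-PA6 arrays against the mean, over the arrays of the dimmer line, of each array's lowest signal well above background (means on the log2 scale). It is approximate, since a probe can read above that lowest signal and not be marked. On T47D-PA5 replicate 1, TGFBR2 read 17.3 unmarked, where the lowest marked signal was 15.2. INHBA passed the filter only through T47D-PA6, the line where it was high, and with no filter it was also called in both comparisons (adjusted p = 0.00388 for T47D-VC1 and 0.00239 for T47D-PA5). With normexp background correction, which adds an offset of 50 to every spot, its log2 difference was 0.75 against T47D-VC1 (adjusted p = 0.00179) and 0.79 against T47D-PA5 (adjusted p = 0.00171), and against T47D-VC1 TGFB1 (0.95) and SMAD3 (0.91) then had larger ones. The fitted log2 difference between T47D-PA5 and T47D-VC1 was -0.42 with a 95% interval from -0.95 to 0.11 (adjusted p = 0.45), between signals that were both under the background mark. Within the earlier scan run the log2 difference between T47D-PA6 and T47D-VC1 was 2.70, and within the later one it was 3.52. Against T47D-PA5 it was 2.97 and 4.02, and between T47D-PA5 and T47D-VC1 it was -0.26 and -0.50.

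The INHBA probe is printed 10 times on each array, so its reading could be checked spot by spot. On each T47D-PA6 array all 10 spots were well above background, with medians of 40.0, 55.4 and 61.8 before normalization. On the T47D-VC1 and T47D-PA5 arrays 0 of 10 spots were, and their medians were 2.73 to 5.73. The highest spot on any of those 6 arrays read 11.5 and the lowest spot on any T47D-PA6 array read 27.9, so no spot of the groups overlapped. These spots share 1 labeled RNA per array and are not replicates of the line.

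**Figure D2:**
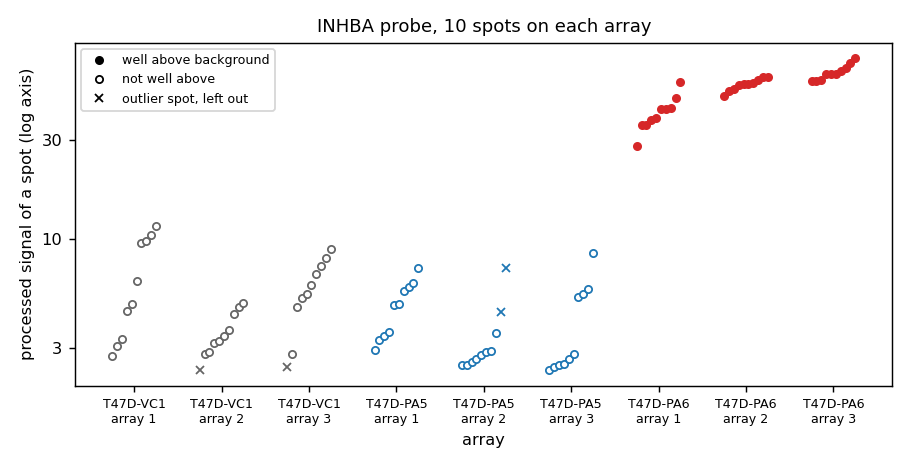
Processed signal before normalization (log axis) of the 10 spots of the INHBA probe on each array, ordered by height within an array, filled where well above background, with outlier spots that were left out shown as crosses. Spots of T47D-PA6 lie from 27.9 to 73.6 and those of the other lines from 2.36 to 11.5.

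TGFB1, the most studied TGF-beta ligand, was well above background on all 9 arrays. Its signal was 67.6, 27.9 and 31.2 in T47D-VC1, 97.5, 57.3 and 44.1 in T47D-PA5 and 110, 161 and 161 in T47D-PA6. The T47D-PA6 arrays were above all others, while the T47D-PA5 and vector arrays overlapped. Relative to T47D-VC1, TGFB1 was higher in T47D-PA6 by 1.87 ± 0.39 (log2, SE), which is 3.65-fold (adjusted p = 0.0222). The differences of 1.18 between T47D-PA6 and T47D-PA5 (95% interval 0.29 to 2.07, adjusted p = 0.0989) and of 0.69 between T47D-PA5 and T47D-VC1 (-0.20 to 1.58, adjusted p = 0.459) did not pass the threshold. In the earlier scan run the difference between T47D-PA6 and T47D-VC1 was 0.70, and in the later one it was 2.45. Between T47D-PA6 and T47D-PA5 it was 0.17 and 1.68, and between T47D-PA5 and T47D-VC1 it was 0.53 and 0.77. The call against T47D-VC1 was lost without T47D-VC1 replicate 2 (adjusted p = 0.0742), T47D-VC1 replicate 3 (0.086), T47D-PA6 replicate 2 (0.0807) or T47D-PA6 replicate 3 (0.0825), with differences of 1.63 to 1.78. Without T47D-VC1 replicate 1, TGFB1 was also called in T47D-PA6 over T47D-PA5 (adjusted p = 0.0422).

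TGFB3, another TGF-beta ligand, had signals of 954, 1863 and 1845 in T47D-VC1, 1498, 1357 and 1284 in T47D-PA5 and 1429, 1613 and 1783 in T47D-PA6. The lowest and the highest array both belonged to the vector line, and the lines overlapped in all comparisons. The log2 difference between T47D-PA6 and T47D-VC1 was 0.11 with a 95% interval from -0.45 to 0.67 (adjusted p = 0.826), 0.58 in the earlier scan run and -0.13 in the later. The differences were -0.11 between T47D-PA5 and T47D-VC1 (-0.67 to 0.45, adjusted p = 0.886) and 0.22 between T47D-PA6 and T47D-PA5 (-0.34 to 0.78, adjusted p = 0.642). Both had opposite signs in the scan runs, at 0.65 and -0.49 for the former and -0.068 and 0.36 for the latter.

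INHBB, the activin B subunit, had signals of 2280, 4977 and 4702 in T47D-VC1, 8131, 5311 and 5410 in T47D-PA5 and 4405, 7183 and 7290 in T47D-PA6. All T47D-PA5 arrays were above the vector arrays, and T47D-PA6 overlapped both other lines. The log2 difference from T47D-VC1 was 0.71 in T47D-PA5 (95% interval -0.061 to 1.48, adjusted p = 0.365) and 0.70 in T47D-PA6 (-0.067 to 1.48, adjusted p = 0.227), and that between the PTH-AS lines was -0.0062 (-0.78 to 0.77, adjusted p = 0.994). The scan runs differed in the size of the T47D-PA5 difference from T47D-VC1, which was 1.84 in the earlier run and 0.15 in the later. The T47D-PA6 difference from T47D-VC1 was 0.95 and 0.58, and that between the PTH-AS lines was -0.88 and 0.43.

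TGFB2, the remaining TGF-beta ligand, read 5.85, 6.18 and 7.73 in T47D-VC1, 23.8, 5.07 and 2.80 in T47D-PA5 and 13.7, 34.9 and 17.4 in T47D-PA6. It was well above background on 0, 1 and 2 arrays of these lines and was therefore not tested. When every gene was fitted without the filter, the log2 difference between T47D-PA6 and T47D-VC1 was 1.63 (adjusted p = 0.394).

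TGFBR1, the type I receptor of TGF-beta, was the member that fell. Its signal was 96.6, 204 and 196 in T47D-VC1, 143, 161 and 198 in T47D-PA5 and 52.4, 68.4 and 89.4 in T47D-PA6. The highest T47D-PA6 array was below the lowest vector array, by a small margin, and below every T47D-PA5 array. TGFBR1 fell by 1.20 ± 0.31 (log2, SE) in T47D-PA6 relative to T47D-VC1, to 0.436 of its level (adjusted p = 0.0462), and by 1.28 ± 0.31 relative to T47D-PA5, to 0.412 (adjusted p = 0.0371). Between T47D-PA5 and T47D-VC1 the difference was 0.082 (95% interval -0.63 to 0.79, adjusted p = 0.936). Within the scan runs, the difference between T47D-PA6 and T47D-VC1 was -0.88 in the earlier and -1.36 in the later, and that between T47D-PA6 and T47D-PA5 was -1.45 and -1.20. Between T47D-PA5 and T47D-VC1 it was 0.57 and -0.16.

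Both TGFBR1 calls were near the threshold, and 8 of the 9 arrays, left out in turn, ended the call against T47D-VC1. The exception was T47D-VC1 replicate 1. The adjusted p was 0.134 and 0.154 without T47D-VC1 replicates 2 and 3, 0.0559, 0.0743 and 0.0693 without T47D-PA5 replicates 1, 2 and 3, and 0.0901, 0.124 and 0.0705 without T47D-PA6 replicates 1, 2 and 3, and the difference stayed between -1.39 and -1.01. The call against T47D-PA5 was lost without T47D-VC1 replicate 3 (adjusted p = 0.052), without T47D-PA5 replicates 1, 2 and 3 (0.0616, 0.103 and 0.127) and without T47D-PA6 replicates 1, 2 and 3 (0.07, 0.113 and 0.06), at differences of -1.47 to -1.09.

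Many of the genes around TGFBR1 on chromosome 9 were lower as well. TGFBR1 is read at chr9:101916322-101916381 (hg19, plus strand). Within 5 Mb of that probe, 62 other genes were tested, of which 31 were called lower and 1 higher in T47D-PA6 relative to T47D-VC1, with a median log2 difference of -0.78. Relative to T47D-PA5, 32 were called lower and 0 higher, with a median of -0.67. Of all tested genes, 5.34% were called lower and 4.69% higher over T47D-VC1, and 6.06% and 3.65% over T47D-PA5. In T47D-PA5 over T47D-VC1 the median of the 62 neighbours was -0.025 and 0 were called, beside 1.67% of all tested genes. The nearest tested genes were ALG2, a mannosyltransferase of N-glycan synthesis, and SEC61B, a subunit of the protein translocation channel, which fell by 0.77 and 0.56 in T47D-PA6 over T47D-VC1. Around the 6 other tested members, the medians in T47D-PA6 over T47D-VC1 were -0.12 to 0.052. Around each of these, among 27 to 245 neighbours, 0 to 5 were called lower and 0 to 16 higher. The part of the chromosome 9 stretch in the TGFBR1 result was not tested.

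**Figure D3:**
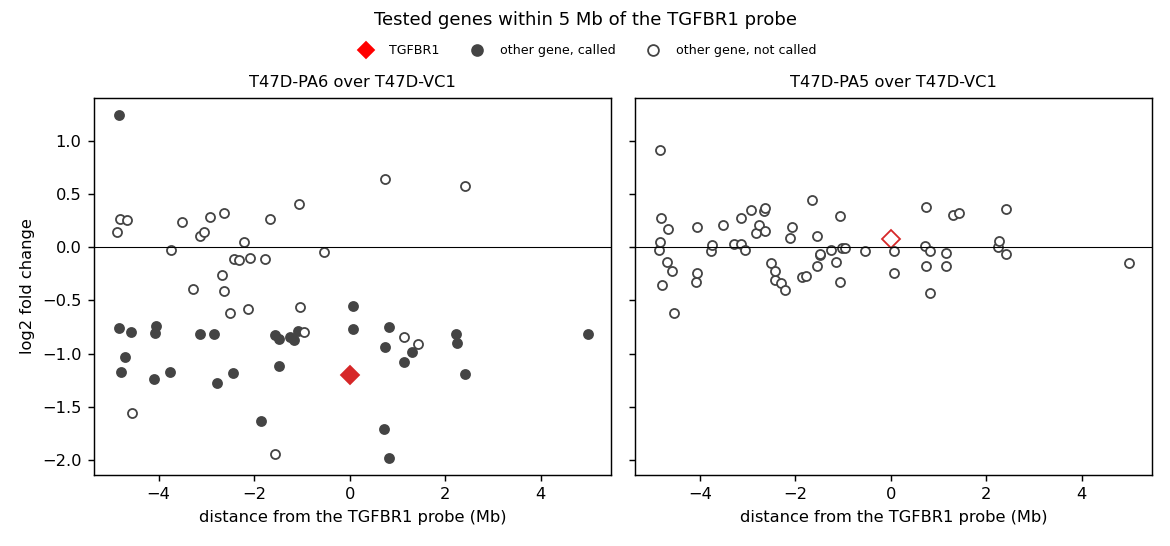
Log2 fold change (vertical axis) of TGFBR1 and of the 62 other tested genes within 5 Mb of its probe, against the distance from it in Mb, for T47D-PA6 over T47D-VC1 (left) and T47D-PA5 over T47D-VC1 (right), filled where called. On the left 31 of the neighbours are called lower and 1 higher, and on the right none is called.

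TGFBR2, the type II receptor that binds TGF-beta, was not tested. Its probe at the transcript's end read 17.5, 3.44 and 8.81 in T47D-VC1, 17.3, 3.53 and 5.77 in T47D-PA5 and 10.5, 11.1 and 5.87 in T47D-PA6, and 1 of these 9 readings, in T47D-VC1, was well above background. The other TGFBR2 probe, for a predicted transcript, read 3.09 to 3.94 on the 9 arrays and was never well above background.

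FST, which binds activin and keeps it from its receptors, read 2.76, 7.63 and 13.8 in T47D-VC1, 27.3, 14.5 and 9.21 in T47D-PA5 and 15.1, 17.5 and 9.88 in T47D-PA6. It was well above background on 1, 2 and 1 of these arrays and was not tested. Fitted without the filter, the log2 difference from T47D-VC1 was 1.22 in T47D-PA5 (adjusted p = 0.662) and 1.06 in T47D-PA6 (adjusted p = 0.576).

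SMAD3, the receptor-activated transducer of TGF-beta and activin, was higher in T47D-PA6 and did not pass the threshold in T47D-PA5. Its signal was 202, 223 and 191 in T47D-VC1, 405, 387 and 388 in T47D-PA5 and 301, 528 and 539 in T47D-PA6. The arrays of both PTH-AS lines were all above the vector arrays and overlapped each other, since replicate 1 of T47D-PA6 was the lowest of the 6. Relative to T47D-VC1, SMAD3 was higher in T47D-PA6 by 1.11 ± 0.21 (log2, SE), 2.15-fold (adjusted p = 0.0158). In T47D-PA5 the difference from T47D-VC1 was 0.94 ± 0.21, 1.92-fold, which did not pass the threshold (adjusted p = 0.0689), and the difference between the PTH-AS lines was 0.16 with a 95% interval from -0.32 to 0.64 (adjusted p = 0.689). The T47D-PA6 difference from T47D-VC1 was 0.57 in the earlier scan run and 1.37 in the later, while that of T47D-PA5 was 1.004 and 0.91. Between the PTH-AS lines it was -0.43 and 0.46.

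The SMAD3 calls moved with single arrays. In T47D-PA6 over T47D-VC1 the call was lost without T47D-VC1 replicate 3 (adjusted p = 0.0661), T47D-PA6 replicate 2 (0.0617) or T47D-PA6 replicate 3 (0.0635), at differences of 0.96 to 1.06. Without T47D-PA6 replicate 1, SMAD3 was called in T47D-PA5 over T47D-VC1 (0.94, adjusted p = 0.00311) and in T47D-PA6 over T47D-PA5 (0.44, adjusted p = 0.0269). With the scan run as a block in the fit, the adjusted p in T47D-PA5 over T47D-VC1 was 0.0356.

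SMAD7, the inhibitory SMAD, had signals of 492, 358 and 331 in T47D-VC1, 517, 504 and 440 in T47D-PA5 and 379, 362 and 340 in T47D-PA6. All T47D-PA6 arrays were below all T47D-PA5 arrays, and both overlapped the vector line. The log2 difference between T47D-PA6 and T47D-PA5 was -0.43 with a 95% interval from -0.79 to -0.078, which did not pass the threshold after adjustment (adjusted p = 0.124). It was -0.45 in the earlier and -0.42 in the later scan run. Without T47D-VC1 replicate 1 the adjusted p was 0.0301, and with the scan run as a block it was 0.0404. The differences from T47D-VC1 were -0.11 in T47D-PA6 (-0.46 to 0.25, adjusted p = 0.712) and 0.32 in T47D-PA5 (-0.030 to 0.68, adjusted p = 0.37), with -0.38 and 0.027 for T47D-PA6 and 0.070 and 0.45 for T47D-PA5 in the earlier and the later scan run.

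Counted by arrays that do not overlap, 4 of the 7 tested members stood apart between T47D-PA6 and T47D-VC1, where 30.9% of all tested genes did. INHBA, which passed the filter only through T47D-PA6, is among these 4 and in the medians below. Between T47D-PA5 and T47D-VC1 it was 2, INHBB and SMAD3, against 23.3%, and between T47D-PA6 and T47D-PA5 it was 4, TGFB1, INHBA, TGFBR1 and SMAD7, against 32.7%. With 3 arrays on each side, the smallest two-sided p of an exact permutation test is 0.1, so none was run. The median log2 difference of the 7 was 0.70 in T47D-PA6 over T47D-VC1, 0.32 in T47D-PA5 over T47D-VC1 and 0.16 in T47D-PA6 over T47D-PA5, beside medians of -0.032, -0.026 and -0.000917 over all tested genes. The first pair of comparisons shares the vector arrays, and the first and the last share the T47D-PA6 arrays.

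**Figure D4:**
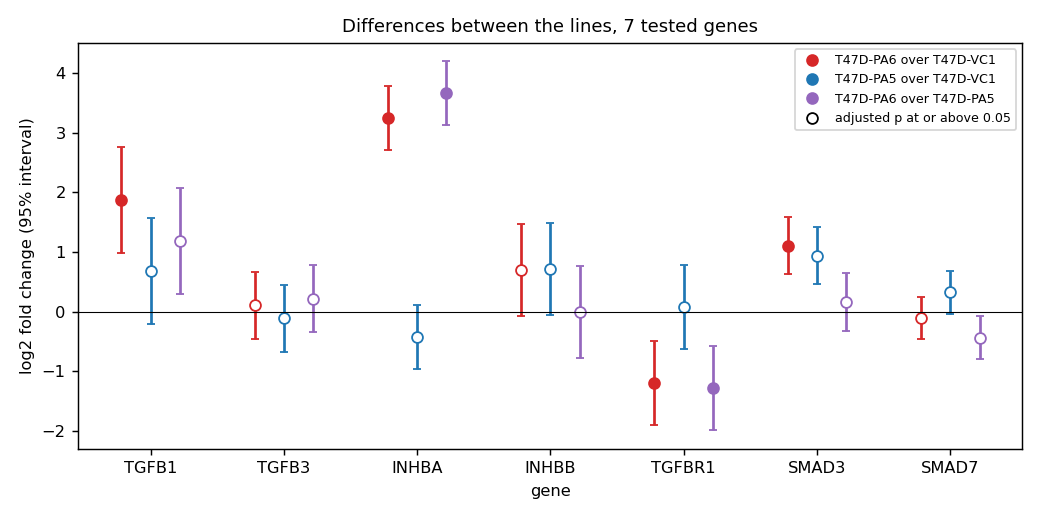
Log2 fold change with its 95% interval for the 7 tested genes in the 3 comparisons, filled where the adjusted p was under 0.05. INHBA lies at 3.25 and 3.67 in the comparisons of T47D-PA6 with T47D-VC1 and T47D-PA5, where the other lines were at background, TGFBR1 at -1.20 and -1.28, and SMAD3 at 1.11 and 0.94 in T47D-PA6 and T47D-PA5 over T47D-VC1.

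The genes whose signal followed INHBA most closely over the 9 arrays, among 18235 genes well above background on all of them, were GTPBP2 (Pearson r = 0.987), ADCY1 (r = 0.986) and IGFBP7 (r = 0.983). The 9 arrays form 3 lines, and these correlations describe mainly the step between T47D-PA6 and the others. GTPBP2, a GTP-binding protein, had mean signals of 3729, 3589 and 5417 for T47D-VC1, T47D-PA5 and T47D-PA6. ADCY1, an adenylyl cyclase, had 33.7, 28.9 and 341, and IGFBP7, a secreted protein that binds insulin-like growth factors, had 116, 91.8 and 591.

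The rest of the pathway was followed through a list of 64 other genes in 6 roles, of which 49 were tested. In T47D-PA6 over T47D-VC1, 8 were called higher and 3 lower, beside 4.69% and 5.34% of all tested genes. In T47D-PA5 over T47D-VC1, 0 of 49 were called by limma, with 5 at an unadjusted p under 0.05, and 0 by the methods' t-test, with 1 unadjusted. Of all tested genes, limma called 1.37% higher and 0.298% lower there, and the t-test called 0.194%. In T47D-PA6 over T47D-PA5, 8 were called higher and 2 lower, beside 3.65% and 6.06% of all tested genes. The median log2 difference of the 49 was 0.098, -0.059 and 0.13 in these comparisons. In T47D-PA6 over T47D-VC1 the 11 calls became 4 without T47D-VC1 replicate 2, 3 without T47D-VC1 replicate 3 and 4 without T47D-PA6 replicate 2 or 3. In T47D-PA6 over T47D-PA5 the 10 became 4 without T47D-PA5 replicate 2 or 3 or T47D-PA6 replicate 2 or 3, and 17 without T47D-PA6 replicate 1. For T47D-PA5 over T47D-VC1, 2 genes, ID1 and INHBE, were called without T47D-PA5 replicate 1, where 2.09% of all tested genes were called. All 11 and all 10 called genes had the same sign of difference in both scan runs, but sizes could differ between the earlier and the later. Over T47D-VC1 they were 0.52 and 1.85 for TGFBR3, 0.75 and 2.17 for PMEPA1, and -0.42 and -0.54 for ITGAV. Over T47D-PA5 they were 0.56 and 2.15 for ID1. In T47D-PA5 over T47D-VC1, ID1, not called in the main fit, changed sign (0.92 and -0.94). With replicates 2 and 3 alone, the calls were 28, 12 and 26, and 37.1%, 21.4% and 35.5% of all tested genes were called. The smaller and larger counts with an array left out likewise stand beside the shares of all tested genes. These were 3.5% to 13.8% in T47D-PA6 over T47D-VC1, 3.61% to 14.7% in T47D-PA6 over T47D-PA5 and 0.492% to 3.09% in T47D-PA5 over T47D-VC1.

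Among the other ligands, 4 of 8 were tested and 0 were called against T47D-VC1. Of all tested genes, 4.69% were called higher and 5.34% lower in T47D-PA6 over T47D-VC1, and 3.65% and 6.06% in T47D-PA6 over T47D-PA5. INHBE, the activin E subunit, was called higher in T47D-PA6 over T47D-PA5 (adjusted p = 0.0198), at mean signals of 93.2 and 15.9. It was well above background on 1 of 3 T47D-PA5 arrays and on all arrays of the other lines, and its mean in T47D-VC1 was 54.9. The fitted log2 difference from T47D-PA5, 2.55, therefore rests in part on readings under the background mark, and it was 0.95 in the earlier scan run and 3.35 in the later. The call was lost with no filter (adjusted p = 0.0713) and without T47D-PA5 replicate 2 or 3 or T47D-PA6 replicate 2 or 3 (0.0653 to 0.0771). INHA, the alpha subunit of inhibin, had differences of 0.60 and 0.36 from T47D-VC1 in T47D-PA6 and T47D-PA5, which did not pass (adjusted p = 0.287 and 0.672). NODAL, LEFTY1, LEFTY2 and MSTN were not well above background on any array.

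Among genes of latency and activation, 7 of 9 were tested, and 1 was called higher and 2 lower in T47D-PA6 against each other line. Of all tested genes, 4.69% were called higher and 5.34% lower over T47D-VC1, and 3.65% and 6.06% over T47D-PA5. LTBP4, which binds latent TGF-beta to the matrix, was higher by 0.54 ± 0.09 over T47D-VC1 (adjusted p = 0.0114) and by 0.48 over T47D-PA5 (adjusted p = 0.018), read from its brightest probe. With the mean of its tested probes the LTBP4 differences were 0.28 and 0.24, and neither passed (adjusted p = 0.0798 and 0.13). ITGAV, the integrin alpha V chain that takes part in releasing TGF-beta from its latent form, fell by 0.50 and 0.51 (adjusted p = 0.0183 and 0.0176). THBS1, the matrix protein thrombospondin 1, an activator of latent TGF-beta, fell by 1.35 ± 0.23 relative to T47D-VC1, from a mean signal of 4128 to 1615 (adjusted p = 0.0107). Relative to T47D-PA5 it fell by 0.95 (adjusted p = 0.0369).

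Among receptors and co-receptors, 6 of 9 were tested and 3 were called higher in T47D-PA6 against each other line. Of all tested genes, 4.69% were called higher over T47D-VC1 and 3.65% over T47D-PA5. BAMBI, a decoy receptor without a kinase domain that TGF-beta can induce, had mean signals of 1449, 1298 and 3843 for T47D-VC1, T47D-PA5 and T47D-PA6. It was higher in T47D-PA6 by 1.41 ± 0.18 over T47D-VC1 (adjusted p = 0.00336) and by 1.57 over T47D-PA5 (adjusted p = 0.00293). TGFBR3, the co-receptor betaglycan, which presents TGF-beta to the receptors and binds inhibin, was higher by 1.41 ± 0.29 (adjusted p = 0.0225) and 1.70 (adjusted p = 0.0106). ACVR1C, the type I receptor ALK7, was well above background in T47D-PA6 alone. By the same approximate bound as for INHBA, it was at least 2.70-fold higher than in T47D-VC1 and at least 2.59-fold higher than in T47D-PA5. The adjusted p-values of the fitted differences, 0.0286 and 0.00567, are not tests of these bounds. ACVR1C passed the filter only through T47D-PA6. With no filter, its call against T47D-VC1 was lost (adjusted p = 0.0887), as it was without T47D-VC1 replicate 1, 2 or 3 or T47D-PA6 replicate 2 or 3 (0.0528 to 0.0933). The activin type II receptors ACVR2A and ACVR2B had differences of -0.24 and 0.20 in T47D-PA6 over T47D-VC1, which did not pass (adjusted p = 0.449 and 0.607). ACVR1B, the activin type I receptor, was not tested, with 1, 0 and 2 arrays well above background for T47D-VC1, T47D-PA5 and T47D-PA6.

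Among intracellular transducers and regulators, all 17 were tested and 1 was called, lower in T47D-PA6 over T47D-VC1. In that comparison 4.69% of all tested genes were called higher and 5.34% lower, so 1 of 17 does not set this role apart. SMAD2, which transduces the same signals as SMAD3, fell by 0.63 ± 0.16 in T47D-PA6 relative to T47D-VC1 (adjusted p = 0.0444). The SMAD2 call held in 11 of 23 alternatives and was lost with the mean of its tested probes (adjusted p = 0.0701), with no filter (0.0988) and with any array left out other than T47D-VC1 replicate 1 (0.0541 to 0.15). SMAD4, the shared partner of both, had a difference of -0.26 (adjusted p = 0.24). The extracellular inhibitor FSTL3, which binds activin as follistatin does, had a difference of 0.28 (adjusted p = 0.568).

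Among genes listed as known targets, 14 of 20 were tested, with 4 called higher in T47D-PA6 against the vector line, 3 against T47D-PA5 and 0 lower. Those called were TGFBI, PMEPA1, ID2 and ID3 against the vector line, and TGFBI, ID1 and ID3 against T47D-PA5. Of all tested genes, 4.69% were called higher and 5.34% lower over T47D-VC1, and 3.65% and 6.06% over T47D-PA5. With 14 genes tested, 0 lower is near those shares. The list does not say whether TGF-beta raises or lowers a gene, so the counts of called targets do not measure the activity of the pathway. TGFBI, a matrix protein named for its induction by TGF-beta, had mean signals of 69.2, 60.7 and 262 for T47D-VC1, T47D-PA5 and T47D-PA6. It was higher in T47D-PA6 by 1.92 ± 0.25 (adjusted p = 0.00312) and by 2.11 (adjusted p = 0.00285). PMEPA1, a negative regulator of SMAD signaling that TGF-beta induces, was higher than in T47D-VC1 by 1.70 ± 0.36 (adjusted p = 0.0227), and its difference from T47D-PA5 was 0.59 (adjusted p = 0.352). In T47D-PA5 its difference from T47D-VC1 was 1.11 (adjusted p = 0.179). ID1, an inhibitor of helix-loop-helix factors that BMP signals induce, was higher than in T47D-PA5 by 1.62 ± 0.36 (adjusted p = 0.0272), and its difference from T47D-VC1 was 1.30 (adjusted p = 0.0559). ID2 and ID3 are of the same family as ID1. Over T47D-VC1, ID2 was higher in T47D-PA6 by 0.72 (adjusted p = 0.0353) and ID3 by 1.25 (adjusted p = 0.0364), and ID3 was higher than in T47D-PA5 by 1.31 (adjusted p = 0.0307). SNAI2 and CDKN2B were not well above background on any array, CCN2 and FN1 were on 1 T47D-PA6 array each, and none of these was tested.

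TGFBI, BAMBI and THBS1 were called in T47D-PA6 over T47D-VC1 whichever array was left out, and TGFBI, BAMBI, ACVR1C and TGFBR3 were in T47D-PA6 over T47D-PA5. Of 23 alternatives, the calls of ITGAV, PMEPA1, TGFBR3, ID3 and ID2 against T47D-VC1 held in 17, 17, 15, 15 and 11, and those of ITGAV, ID1, ID3 and THBS1 against T47D-PA5 in 18, 15, 13 and 13. CD14, listed as a leukocyte marker, was higher in T47D-PA6 by 1.80 over T47D-VC1 (adjusted p = 0.00821), at mean signals of 47.8, 115 and 167 for T47D-VC1, T47D-PA5 and T47D-PA6. PTPRC was at 20.3, 20.8 and 18.0 and CD3E was under the background mark on all arrays, so of these 3 leukocyte markers CD14 alone was called. The part of other cell types in the pathway values was not tested.

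**Figure D5:**
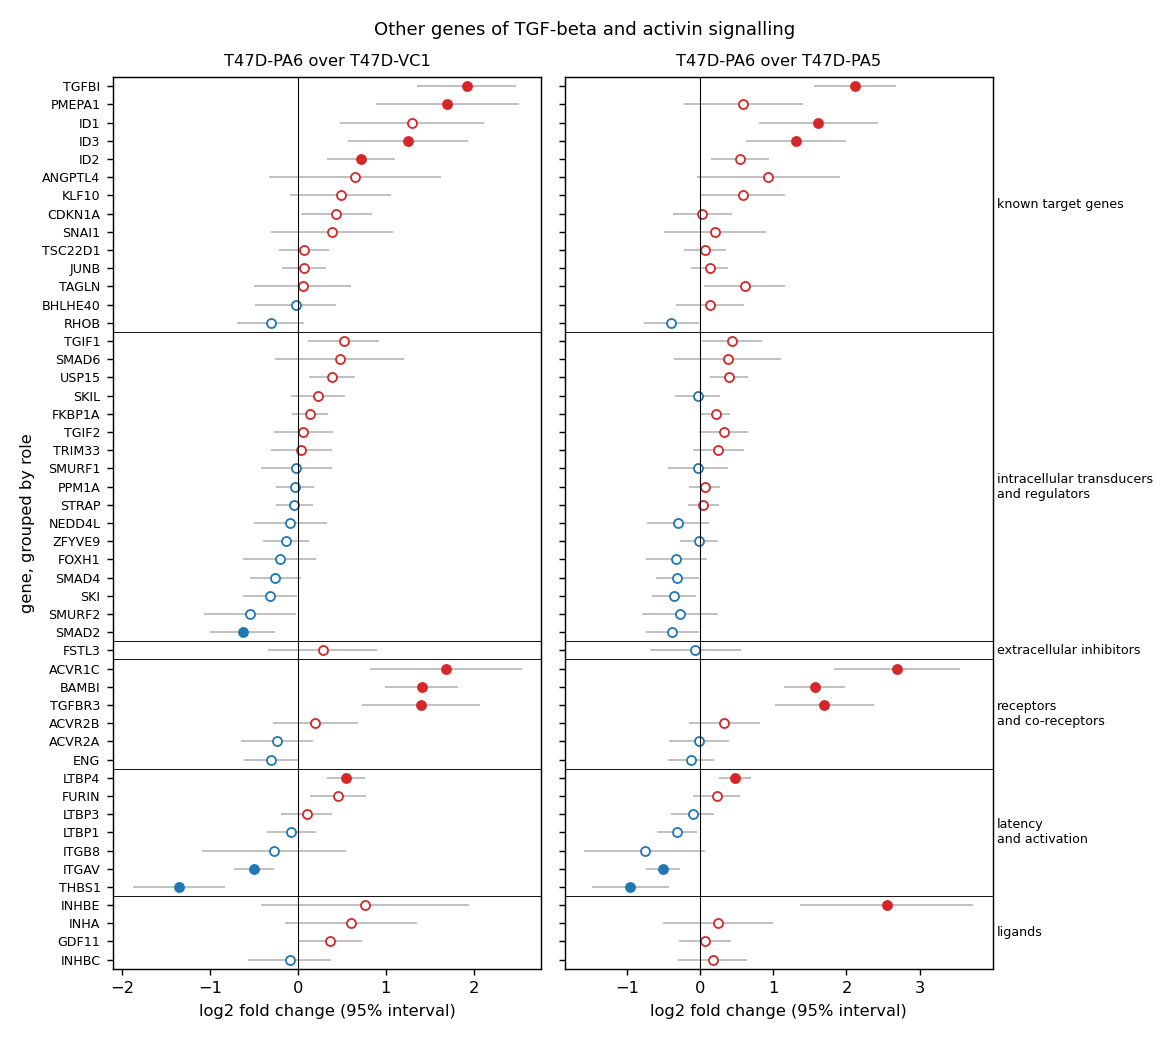
Log2 fold change with its 95% interval for the 49 tested genes of the wider list, grouped by role, in T47D-PA6 over T47D-VC1 (left) and T47D-PA6 over T47D-PA5 (right), filled where the adjusted p was under 0.05, red above 0 and blue below. The called points are 8 higher and 3 lower on the left and 8 higher and 2 lower on the right.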

How the data were processed

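RNA of the 3 lines was hybridized to SurePrint G3 v3 single-color arrays, from 50 ng of total RNA. The authors deposited, for each array, the spot intensity from Feature Extraction, background-subtracted and without normalization across arrays. Its version is 10.7.1.1 in the file headers and 9.5.1.1 in the submitters' processing notes. They also deposited a table of quantile-normalized intensities, which on the log2 scale correlated at 0.999999 with the values used here.

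Outlier spots (46 to 117 of 60901 per array) were left out, spots of a probe averaged on the log2 scale, and arrays quantile-normalized. This left 26171 tested probes for 20106 genes, each read from its brightest tested probe. Of the probe names, 31127 matched a RefSeq symbol, 3343 an accession, 496 a synonym and 23235 stayed as in the files. The fit used limma 3.58.1 in R 4.3.3 with 6 residual degrees of freedom. Precision is limited by 3 arrays per line. The lowest signal well above background was 9.59 to 15.2. Figures were drawn with matplotlib 3.10.9. The fit was also run on simulated data with independent noise on each array and no scan run or slide structure. That run therefore cannot show how the fit behaves on these arrays.

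The named genes are the 10 members, up to 8 called genes of the wider list per comparison with the lowest adjusted p, the 3 genes most alike in pattern to INHBA, and markers. Other genes of the wider list (SMAD2, ID2, ID3 and genes that were not called or not tested) and neighbours of TGFBR1 were named after their values were seen. The members and lists were chosen with earlier results of these data known. Same-numbered arrays deviated together, with correlations of 0.132 to 0.337 between T47D-PA6 and T47D-VC1, 0.166 to 0.273 between T47D-PA6 and T47D-PA5, and 0.0992 to 0.21 between T47D-PA5 and T47D-VC1. Arrays numbered 2 and 3 of different lines, all of the later scan run, correlated at 0.104 to 0.261 across numbers as well, so the numbers cannot be told apart from the scan run. The replicate numbers come from the labels, which do not say what a number marks, and the fit with them as a block is an alternative. Other alternatives changed the normalization, background correction, filter, probe choice, blocks, arrays or test. No spot was saturated.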

Additional observations from a re-analysis of the deposited data

Results flagged for a closer look

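The effects of T47D-PA6 and T47D-PA5 against the shared vector arrays differed, by the direct limma comparison of T47D-PA6 over T47D-PA5, for INHBA (3.67, log2) and TGFBR1 (-1.28). Of the wider list, they differed for INHBE (2.55), LTBP4 (0.48), ITGAV (-0.51), THBS1 (-0.95), ACVR1C (2.69), TGFBR3 (1.70), BAMBI (1.57), TGFBI (2.11), ID1 (1.62) and ID3 (1.31). The fitted values of INHBA and ACVR1C are not bounds, since T47D-PA5 was not well above background for them, and for INHBE it was so on 1 of 3 arrays. The effects were not shown to differ for TGFB1 (adjusted p = 0.0989) and SMAD3 (adjusted p = 0.689), which were called against T47D-VC1 in T47D-PA6 and not in T47D-PA5.

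Among the untested genes, TGFB2 was well above background on 2 of 3 T47D-PA6 arrays and 1 of 3 T47D-PA5 arrays, against 0 of 3 vector arrays. FST was on 2 of 3 T47D-PA5 arrays, against 1 of 3 vector arrays.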

How the results depend on the processing

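INHBA was called in both comparisons with T47D-PA6 under all 22 alternatives with a test that kept its probe, and the filter for probes well above background on all 9 arrays removed it. In T47D-PA6 over T47D-VC1, SMAD3 was called in 18, TGFB1 in 17 and TGFBR1 in 12 of 23 such alternatives, and TGFBR1 in 14 of 23 in T47D-PA6 over T47D-PA5, each with its direction kept in all of them. With normexp, INHBA became 0.75 (from 3.25) and TGFB1 0.95 (from 1.87) in T47D-PA6 over T47D-VC1 and INHBA 0.79 (from 3.67) in T47D-PA6 over T47D-PA5. With the replicate number as a block, no call of a member changed. Each number holds 1 array of each line, so the pairing cannot move a difference, and members called were 4, 0 and 2 as without it. With the slide as a block, the same members were called. Of the wider list, ACVR1C, ID2, ID3 and TGFBR3 then lost their calls against T47D-VC1 (adjusted p = 0.0505 to 0.0775), and FURIN and TGIF1 gained one. Against T47D-PA5, ID1 and INHBE lost theirs and TGIF1 gained one. Of all tested genes, 11.4% and 9.73% were called in these comparisons. In T47D-PA6 over T47D-VC1, members called were 2 with no filter and 2 with only the compared lines, beside 2.96% and 5.7% of all genes fitted. They were 1 by the methods' t-test (4 unadjusted) and 1 to 4 with an array left out, beside 2.15% and 3.5% to 13.8%. In T47D-PA5 over T47D-VC1 members called were 1 with the scan run as a block, an intensity trend or only the compared lines, beside 5.27%, 2.4% and 1.22%. They were 4 with replicates 2 and 3 alone (21.4%) and 0 to 1 with an array left out (0.492% to 3.09%). In T47D-PA6 over T47D-PA5 members called were 1 with no filter, the stricter filter or the methods' t-test (4 unadjusted), beside 2.91%, 9.81% and 3.93%. They were 7 with replicates 2 and 3 alone (35.5%) and 1 to 4 with an array left out (3.61% to 14.7%). Genes of the wider list called in T47D-PA6 over T47D-VC1 were 5 with no filter and 17 with the scan run block (19.6% of all tested genes). They were 28 with replicates 2 and 3 alone (37.1%), 2 by the methods' t-test (17 unadjusted) and 3 to 15 with an array left out. In T47D-PA5 over T47D-VC1 they were 12 with replicates 2 and 3 alone and 0 to 2 with an array left out. They were 3 by a ratio above 2 or below 0.6, beside 2.17% and 1.76% of all tested genes. In T47D-PA6 over T47D-PA5 they were 6 with no filter, 26 with replicates 2 and 3 alone, 3 by the methods' t-test (20 unadjusted) and 4 to 17 with an array left out. Where no share of all tested genes is printed beside these counts, it is the one given for the members above. Over all tested genes, the 2017, 335 and 1952 calls of T47D-PA6 over T47D-VC1, T47D-PA5 over T47D-VC1 and T47D-PA6 over T47D-PA5 became 1285, 198 and 1262 with no filter, 3939, 1060 and 3575 with the scan run block and 7469, 4309 and 7142 with replicates 2 and 3 alone. No called log2 difference of a member changed sign. INHBB in T47D-PA6 over T47D-PA5 became 0.012 with normexp, 0.19 without T47D-PA5 replicate 1, 0.23 without T47D-PA6 replicate 1 and 0.43 with replicates 2 and 3 alone. SMAD7 in T47D-PA6 over T47D-VC1 became 0.027 with replicates 2 and 3 alone and ranged from -0.22 to 0.064 with an array left out, above 0 without T47D-VC1 replicate 1. TGFB3 in T47D-PA5 over T47D-VC1 ranged from -0.43 to 0.053, above 0 without T47D-VC1 replicate 2 or 3, and in T47D-PA6 over T47D-VC1 from -0.21 to 0.27, below 0 without T47D-VC1 replicate 1, and was -0.13 with replicates 2 and 3 alone. TGFBR1 in T47D-PA5 over T47D-VC1 ranged from -0.27 to 0.27, below 0 where T47D-VC1 replicate 1 or replicate 3 of T47D-PA5 was left out, and was -0.16 with replicates 2 and 3 alone. The cause of these changes was not tested. A fit with 2 arrays per line estimates the spread from few arrays. Signal near background limits TGFB2, TGFBR2 and FST.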
